A study of Mus musculus with 12 samples.

Results

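Knockout (KO) and wild-type (WT) mice were compared on a high fat diet, with 3 KO libraries set against 3 WT libraries out of the 12 libraries sequenced. The libraries were chosen by their titles, KO-highfat and Flox-highfat, and every measured gene was kept. All 12 mice were 22-week-old FVB males, and RNA came from proximal hind limb skeletal muscle. KO mice lacked both αB-crystallin (Cryab) and HspB2 (Hspb2) in every tissue, WT mice were their littermates, and the remaining 6 libraries came from KO and WT mice on normal chow. The 2 genes were removed together, so the part of each cannot be told apart, and neither can an effect in muscle be told apart from one that began in fat, liver or immune cells. A second genotype label went against the title in 5 of these 6 libraries. The titles were used, and Cryab was at 649.8 FPKM or more in each library titled WT and at 1.75 FPKM or less in each library titled KO.

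Cryab and Hspb2 encode small heat shock proteins that lie head to head on one chromosome and are abundant in heart and skeletal muscle, where they bind unfolding proteins and sit at the Z-disc beside desmin. Skeletal muscle takes up much of the glucose and fatty acid in the blood, and in obesity fat cells and macrophages gather between its fibres. In RNA from whole muscle, fewer cells of a type and less RNA per cell cannot be told apart, and this holds for every cell type marker below.

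The 6 libraries were alike in most of their genes, with rank correlations between any of them and any other library of the series of 0.963 to 0.984. Values were in FPKM, fragments counted on a gene for its length in kilobases and for the size of the library, and they summed to between 558515 and 691621 per library. Muscle creatine kinase (Ckm) was at 17661 to 21895 FPKM, which fits the labelled tissue. Acta1, skeletal muscle actin, was at 28311 to 35165 FPKM in 5 libraries but is listed at 0 in KO 2, and Myh4, the fast 2B myosin, is listed at 0 in every library. Some libraries stood apart in RNA of other tissues or of slow fibres. WT 2 held 3.46 FPKM of the skin keratin Krt5, which is listed at 0 in the other 5, and WT 1 had 3.20 FPKM of the slow myosin Myh7 against 53.0 to 138 in the others. The T cell markers Cd3e, Cd3g and Lck stayed at or below 0.578 FPKM in all 6 libraries. On chow, 3 libraries held 6.30 to 8.73 FPKM of them, and 1 KO library on chow had 96.4% of its FPKM total in 10 genes, both of which touch the chow values given for comparison.

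Of 11945 genes with at least 1 FPKM in 3 or more of the 12 libraries, 13 passed an adjusted p of 0.05 in limma. Higher in KO were 9 genes (0.0753% of those tested), and 4 were lower (0.0335%), of which 2 were the deleted genes and the other two lay near them. Without adjustment, 1170 genes (9.79%) were higher in KO at p under 0.05 and 770 (6.45%) lower, and the 3 KO libraries lay entirely above the 3 WT libraries for 1556 genes (13%) and entirely below for 1280 (10.7%). The median log2 difference over all genes was -0.01, and 47.1% of them had a positive one. Of the genes in the lists described below, Cryab, Hspb2, Serpina3h and Colq passed the adjusted threshold and the rest did not, so counts of other members at an unadjusted p are to be read against these shares. The balance of the unadjusted calls depended on scaling, since 60.3% of them were higher in KO as deposited and 48.6% after quantile normalization. The number of genes passing the adjusted threshold also depended on single libraries. It was 6, 28 and 82 without WT 1, 2 and 3, and 5, 4 and 9 without KO 1, 2 and 3.

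**Figure D1:**
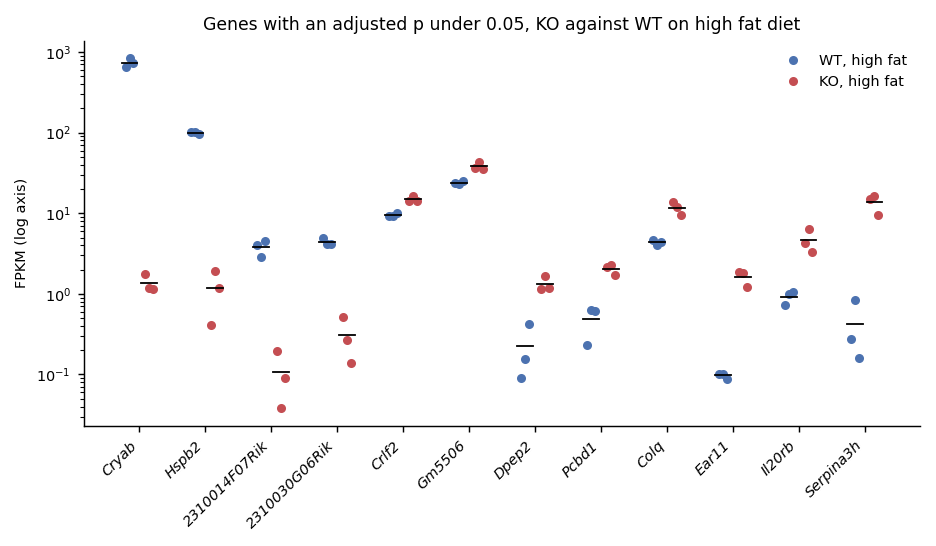
FPKM on a log axis of 12 of the 13 genes with an adjusted p under 0.05 (limma), with a point for each of the 3 WT and 3 KO libraries on high fat diet and a bar at each group mean. The groups do not overlap in any of the 12, with Cryab, Hspb2 and their neighbours lower and the other 8 higher in KO.

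Both deleted genes were close to absent. Cryab (chr9:50751325-50756636, plus strand, mm10) stood at 649.8, 837 and 731 FPKM in WT and at 1.75, 1.17 and 1.14 FPKM in KO, a log2 difference of -8.30 (SE 0.17, adjusted p = 3.42e-10 in limma). Hspb2 (chr9:50751078-50752354, minus strand) stood at 103, 100.4 and 95.6 FPKM in WT and at 0.408, 1.92 and 1.20 FPKM in KO, a log2 difference of -5.59 (SE 0.21, adjusted p = 1.51e-07). Each fell by a similar amount on chow, with log2 differences of -7.78 and -5.92. The other small heat shock proteins did not pass the threshold. Of 8 tested, the deleted genes included, 1 was higher and 3 were lower at an unadjusted p under 0.05 (9.79% and 6.45% of all genes). None was higher without WT 3, and none was higher and 4 were lower without KO 2. Hspb8, the partner of the co-chaperone Bag3, was at 277, 282 and 259.9 FPKM in WT and at 367, 522 and 340.0 FPKM in KO, so that the groups did not overlap (log2 difference 0.56, adjusted p = 0.239). Hspb1, the small heat shock protein once called Hsp25, was likewise higher in each KO library, at 245, 256 and 243 FPKM against 275, 440.0 and 341 FPKM (adjusted p = 0.391). Among 22 other chaperones the median log2 difference was 0.01, with none higher and 3 lower at an unadjusted p under 0.05 (none without KO 1 and 1 without KO 2). Among the 3 was Hspe1, the mitochondrial co-chaperonin, at 126, 109 and 104 FPKM in WT and 85.9, 88.4 and 93.9 FPKM in KO (adjusted p = 0.214).

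The other 2 lower genes that passed the threshold lie within 1 Mb of the deletion. The uncharacterized gene 2310030G06Rik (chr9:50739691-50746536, minus strand) ends 4.79 kb before Cryab begins. It was at 4.96, 4.16 and 4.17 FPKM in WT and at 0.517, 0.267 and 0.140 FPKM in KO (log2 difference -2.06, SE 0.12, adjusted p = 1.60e-05). The long noncoding RNA 2310014F07Rik, annotated as Plet1os (chr9:50488795-50507823, minus strand), lies 243.5 kb away. It was at 4.01, 2.85 and 4.54 FPKM in WT and at 0.195, 0.0380 and 0.0907 FPKM in KO (log2 difference -2.10, SE 0.16, adjusted p = 0.000111). The library kit did not mark strand, and the gene it overlaps, Plet1, has a row of its own (1600029D21Rik) at 0.210 FPKM or less in all 6 libraries, with overlap. Both also fell on chow, by 1.94 and 2.05 on the log2 scale. Within 1 Mb of Cryab, leaving out the deleted genes, 16 genes were tested, and 50% of them had an unadjusted p under 0.05, 4 higher and 4 lower, against 15.8% of the 634 genes tested on the rest of chromosome 9. Chosen after its values were seen, Pts, an enzyme of tetrahydrobiopterin synthesis in that window, was at 15.6, 11.5 and 13.7 FPKM in WT and at 6.32, 7.71 and 8.75 FPKM in KO (adjusted p = 0.0664). Dixdc1, also chosen after its values were seen, lies 11.8 kb from Cryab and did not reach the filter. It was at 0.828, 0.923 and 0.834 FPKM in WT and at 0.386, 0.385 and 0.308 FPKM in KO. What these neighbours share with the targeted allele beyond position was not tested.

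The 9 genes that rose differ in what they are known to do. Colq encodes the collagen tail that anchors acetylcholinesterase in the synaptic cleft of the neuromuscular junction. It was at 4.70, 4.09 and 4.45 FPKM in WT and at 13.7, 11.9 and 9.58 FPKM in KO, 2.66 times the WT mean (log2 difference 1.22, SE 0.16, adjusted p = 0.0138). Il20rb, a chain of the receptors for interleukins of the IL-20 group, was at 0.718, 0.989 and 1.06 FPKM in WT and at 4.28, 6.43 and 3.29 FPKM in KO, 5.06 times the WT mean (log2 difference 1.53, SE 0.22, adjusted p = 0.0234). It lies on chromosome 9 outside the window of neighbours counted above.

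Serpina3h had the largest rise. It belongs to a cluster of near-identical serine protease inhibitor genes on chromosome 12 (chr12:104247905-104253669, plus strand), is annotated as a transcribed pseudogene, and was at 0.275, 0.842 and 0.159 FPKM in WT and at 15.2, 16.5 and 9.43 FPKM in KO (log2 difference 3.36, SE 0.42, adjusted p = 0.0133). Reads of this cluster can be shared between copies, so the copy is uncertain. Serpina3i followed it, at no more than 0.0862 FPKM in WT and 1.86, 1.96 and 1.15 FPKM in KO (adjusted p = 0.0601), as did Serpina3c, at 0.638, 2.80 and 4.95 FPKM in WT and 7.82, 8.44 and 7.61 FPKM in KO (adjusted p = 0.135). All 6 members of the cluster that were tested had positive differences, and the groups did not overlap in 5 (13% of all genes, in that direction). Of the 6, 2 were tested only because of their KO level.

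Of the remaining genes, Crlf2, the receptor subunit for thymic stromal lymphopoietin, rose from 9.30, 9.21 and 10.05 FPKM in WT to 14.3, 16.4 and 14.0 FPKM in KO (log2 difference 0.59, SE 0.09, adjusted p = 0.0400). Dpep2, a membrane dipeptidase that acts on leukotriene D4, was at 0.0915, 0.155 and 0.422 FPKM in WT and at 1.16, 1.68 and 1.18 FPKM in KO (log2 difference 0.94, SE 0.14, adjusted p = 0.0418). Ear11, an eosinophil-associated ribonuclease annotated as Rnase2a on chromosome 14, was at 0.102, 0.102 and 0.0888 FPKM in WT and at 1.84, 1.83 and 1.21 FPKM in KO (log2 difference 1.25, SE 0.14, adjusted p = 0.00612). It is a member of a multigene family whose reads can be split between copies, and Dpep2, Ear11 and Pcbd1 were tested only because of their KO level, so their difference was partly a condition of being tested. Pcbd1, which recycles the tetrahydrobiopterin cofactor, was at 0.234, 0.633 and 0.609 FPKM in WT and at 2.15, 2.26 and 1.72 FPKM in KO (log2 difference 1.04, adjusted p = 0.0234). Gm5506, annotated as a near-identical copy of the glycolytic enolase gene Eno1, was at 23.8, 23.0 and 24.9 FPKM in WT and at 35.9, 43.1 and 35.7 FPKM in KO (log2 difference 0.65, adjusted p = 0.0234). Eno1 itself, named after its values were seen, was at 50.7, 49.8 and 57.9 FPKM against 85.0, 93.7 and 80.0 FPKM, and its adjusted p of 0.0506 was the lowest that missed the threshold. Reads can be shared between near-identical copies, so the values of Gm5506 and Eno1 may not be separate.

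These calls were not equally steady. When each of the 6 libraries was left out in turn, Cryab, Hspb2 and both of their neighbours passed in every case. Serpina3h, Colq and Il20rb passed in 3 of 6 cases, Pcbd1 in 2, Gm5506 and Crlf2 in 1, and Dpep2 in 1 of the 3 cases in which it was tested. Ear11 passed in 3 of 3 cases, all of them with every KO library kept, since without any 1 of these it did not reach the filter.

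Macrophage genes were higher in KO on high fat. No member of a macrophage list passed the adjusted threshold, but of 16 general macrophage genes tested from a list of 18, all 16 had positive differences. Of these, 12 had an unadjusted p under 0.05 and 10 did not overlap between the groups (9.79% and 13% of all genes, in that direction). The median log2 difference was 1.13 against -0.01 over all genes. Emr1, which encodes the macrophage marker F4/80, was at 0.942, 2.38 and 2.37 FPKM in WT and at 5.52, 8.35 and 5.37 FPKM in KO, 3.38 times the WT mean (log2 difference 1.38, SE 0.22, adjusted p = 0.0529). Cd68, a lysosomal glycoprotein of macrophages, was at 3.11, 7.54 and 11.6 FPKM against 20.5, 40.1 and 20.7 FPKM (log2 difference 1.81, adjusted p = 0.0826). Csf1r, the receptor for the macrophage growth factor Csf1, was at 4.22, 10.7 and 9.67 FPKM against 21.0, 28.9 and 14.6 FPKM (log2 difference 1.33, adjusted p = 0.0866). WT 1 was the lowest library for each of these 3 genes. Lyz2, lysozyme M, which neutrophils also make, was at 99.6, 81.4 and 114 FPKM in WT and 157, 239 and 111 FPKM in KO, and here the groups overlapped (adjusted p = 0.368).

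Genes of tissue-resident macrophages went the same way. Of 16 tested from a list of 17, 12 were higher and none lower at an unadjusted p under 0.05 (9.79% of all genes were higher), with a median log2 difference of 0.90. Clec10a, a galactose-type lectin, was at 2.18, 9.08 and 7.56 FPKM in WT and at 19.7, 40.8 and 20.2 FPKM in KO (log2 difference 2.02, adjusted p = 0.0677). Mrc1, the mannose receptor, was at 1.71, 5.63 and 4.34 FPKM against 10.6, 12.4 and 7.10 FPKM (log2 difference 1.24, adjusted p = 0.0929), and Folr2, a folate receptor, at 2.27, 8.83 and 7.44 FPKM against 18.4, 24.6 and 12.8 FPKM (log2 difference 1.55, adjusted p = 0.0874). The KO libraries lay above all WT libraries for these 3 genes. Lyve1 overlapped between the groups, at 1.22, 6.80 and 4.67 FPKM in WT and 7.39, 5.98 and 4.53 FPKM in KO (adjusted p = 0.494).

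Lipid-associated macrophages, which carry lysosomal and lipid-handling genes and gather where fat cells die, were marked by a separate list. Of 15 members tested from 17, 11 were higher and none lower at an unadjusted p under 0.05 (9.79% of all genes were higher), and 12 did not overlap in that direction (13% of all genes), with 2 of the 15 tested only because of their KO level. The microglial and macrophage receptor Trem2 was at 0.673, 2.05 and 3.53 FPKM in WT and at 8.26, 13.3 and 7.75 FPKM in KO (log2 difference 1.88, SE 0.34, adjusted p = 0.0601). Gpnmb, a lysosomal glycoprotein, was at 1.60, 4.54 and 6.66 FPKM against 12.2, 19.3 and 12.9 FPKM (log2 difference 1.69, adjusted p = 0.0688). Mmp12, macrophage elastase, was at 0.195, 1.34 and 4.18 FPKM against 6.44, 9.91 and 6.28 FPKM (log2 difference 1.78, adjusted p = 0.0875). Atp6v0d2, a subunit of the proton pump that acidifies lysosomes, was at 0.118, 0.379 and 1.15 FPKM against 1.92, 3.87 and 3.59 FPKM (log2 difference 1.43, adjusted p = 0.0601). The list did not move as one, since Spp1, osteopontin, was at 2.74, 3.49 and 14.3 FPKM in WT and 4.41, 4.01 and 1.83 FPKM in KO, with overlapping groups (log2 difference -0.58, adjusted p = 0.596).

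The 300-base windows around the annotated start sites (250 bases before, 50 after) of Trem2 and Mmp12, both of the lipid-associated list, are printed to show a short motif. Capitals mark GAGGAA, the core bound by the myeloid factor PU.1 and other ETS proteins, read on either strand, where it appears as TTCCTC (RefSeq sequences, GRCm38.p6, both plus strand).
Trem2, chr17:48346151-48346450: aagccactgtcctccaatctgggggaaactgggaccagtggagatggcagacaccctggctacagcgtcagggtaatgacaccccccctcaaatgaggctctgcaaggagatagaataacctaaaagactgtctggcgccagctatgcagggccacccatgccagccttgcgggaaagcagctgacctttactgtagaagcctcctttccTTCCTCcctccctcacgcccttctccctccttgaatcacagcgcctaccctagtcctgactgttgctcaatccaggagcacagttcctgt
Mmp12, chr9:7344147-7344446: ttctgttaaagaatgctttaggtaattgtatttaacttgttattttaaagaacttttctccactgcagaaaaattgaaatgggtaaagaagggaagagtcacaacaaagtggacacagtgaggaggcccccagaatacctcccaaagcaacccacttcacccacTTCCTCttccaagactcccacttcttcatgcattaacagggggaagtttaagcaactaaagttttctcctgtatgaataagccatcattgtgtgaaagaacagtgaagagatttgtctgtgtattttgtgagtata
Each holds 1 match, and a second annotated start of Mmp12 holds none. The motif lies in a window of 31.3% of 27025 genes, and in 8 of 13 general macrophage genes, 9 of 13 resident and 7 of 13 lipid-associated genes with a sequence, against 5 of 17 fat cell genes and 2 of 26 fatty acid oxidation genes. It is no mark of macrophages alone, being present in 8 of 13 fast fibre genes, 6 of 9 endothelial genes and 9 of 13 neutrophil genes. A longer form, GAGGAAGT, which contains the shorter, lies in 3.69% of all genes and in 2 of 13, 3 of 13 and 2 of 13 of the macrophage lists. It lies in 4 of 13 neutrophil genes. GAANNTTC, a minimal form of the heat shock element, lies in 9.04% of all genes and in 4 of 8 small heat shock protein genes with a sequence. These are matches of letters and not binding sites.

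Other genes of the macrophage and monocyte lineage were less uniform. Of 17 complement genes tested, 15 were higher and 1 lower at an unadjusted p under 0.05 (9.79% and 6.45% of all genes). The genes of the C1q chains also served as macrophage markers, so the complement count is not independent of the macrophage lists. Of the 17, 2 were tested only because of their KO level, and without KO 2 the count was 7 of 16 higher. C3ar1, the receptor for the C3a fragment, was at 0.539, 1.09 and 1.56 FPKM in WT and at 3.55, 4.91 and 2.96 FPKM in KO (log2 difference 1.23, SE 0.21, adjusted p = 0.0599). C1qa, a chain of the first component, was at 11.4, 35.6 and 27.6 FPKM against 49.9, 78.2 and 32.2 FPKM, and the groups overlapped. The monocyte and inflammatory list was mixed. Only 10 of its 18 members were tested, 2 were higher (none without WT 1 or without KO 2) and 1 lower at an unadjusted p under 0.05, and the lower one was Chi3l3, a chitinase-like protein of alternatively activated macrophages and neutrophil precursors, at 20.7, 1.68 and 7.64 FPKM in WT and 1.00, 0.390 and 0.280 FPKM in KO (log2 difference -2.38, adjusted p = 0.107). Genes of antigen presentation by MHC class II were higher in KO without overlap for 7 of 10 (13% of all genes), though 1 of the 10 had an unadjusted p under 0.05. None of the 10 did without WT 1, WT 2, KO 1 or KO 2. With the high fat groups alone in the fit, 6 were tested and all 6 were higher at that level, none past the adjusted threshold. Cd74, the invariant chain, was at 34.1, 39.9 and 76.5 FPKM in WT and 81.5, 129.8 and 95.3 FPKM in KO (adjusted p = 0.407).

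**Figure D2:**
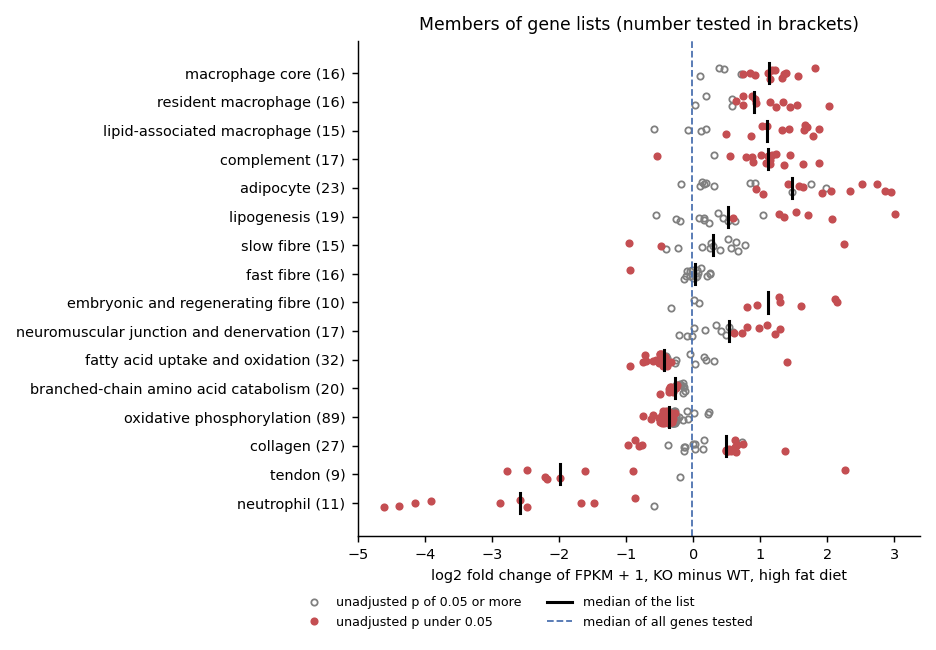
Log2 difference (KO minus WT, FPKM + 1) on high fat diet of each tested member of 16 gene lists, filled where the unadjusted p was under 0.05, with the median of each list as a black bar and the median of all genes as a dashed line. Macrophage, complement and fat cell members lie mostly to the right, members for fatty acid oxidation, branched-chain amino acids, oxidative phosphorylation, tendon and neutrophils mostly to the left, and fast fibre members around 0.

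With all 6 libraries, fat cell genes were higher in KO with a larger median than the macrophage genes and with wide spread among the WT libraries. Of 23 tested from 24, 12 were higher and none lower at an unadjusted p under 0.05 (9.79% of all genes were higher). In that direction 8 did not overlap (13% of all genes). The median log2 difference was 1.48, but the lowest adjusted p was 0.168. Adipoq, the fat cell hormone adiponectin, was at 1.40, 28.9 and 94.8 FPKM in WT and at 112, 91.7 and 125 FPKM in KO (log2 difference 2.53, SE 1.07, adjusted p = 0.277). The satiety hormone leptin (Lep) was at 0.316, 15.4 and 50.6 FPKM against 69.0, 63.3 and 93.4 FPKM (log2 difference 2.86, SE 1.15, adjusted p = 0.249). Resistin (Retn) was at 0.303, 7.44 and 28.3 FPKM against 47.7, 53.2 and 56.0 FPKM (log2 difference 2.96, SE 0.98, adjusted p = 0.168), and Cidec, a coat protein of the lipid droplet, at 0.802, 27.3 and 83.9 FPKM against 98.7, 92.8 and 138 FPKM (log2 difference 2.74, adjusted p = 0.262). WT 1 held very little of all 4 and WT 3 was the closest to the KO libraries. Without WT 1 the median of the list was 0.78 with 2 members at an unadjusted p under 0.05, and that of the lipid-associated macrophage list was 0.88. Without WT 3 the fat cell median was 2.19 with 18 members. Without KO 1 or KO 3 that count was 3, and without WT 2 it was 6 higher and 1 lower. None of the 3 brown fat genes tested had an unadjusted p under 0.05.

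Genes that build fatty acids varied with the same libraries. Of 19 tested, 7 were higher and none lower at an unadjusted p under 0.05 (9.79% of all genes were higher). The desaturase gene Scd1 was at 7.31, 85.6 and 342 FPKM in WT and at 657, 375 and 520.0 FPKM in KO (log2 difference 3.01, SE 1.08, adjusted p = 0.199). Fatty acid synthase (Fasn) was at 1.40, 6.21 and 10.6 FPKM against 29.6, 22.2 and 20.1 FPKM (log2 difference 2.07, adjusted p = 0.176), and Slc25a1, the citrate carrier that supplies it, at 3.04, 8.13 and 13.9 FPKM against 21.3, 27.5 and 29.6 FPKM (log2 difference 1.72, adjusted p = 0.154). Without WT 1, 2 of the 19 were higher, and without KO 1 or KO 3, 4 were higher and 1 lower. Acaca, the carboxylase that commits carbon to fatty acids, differed less, at 1.49, 2.24 and 2.70 FPKM against 4.08, 3.15 and 3.13 FPKM (log2 difference 0.51, adjusted p = 0.529).

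The sums of macrophage and fat cell genes were set side by side. The FPKM summed over the general macrophage list was 186, 249.6 and 288 in WT and 452, 715 and 342 in KO, and the sum over the fat cell list was 1152, 1269 and 2476 in WT and 2671, 2526 and 3150 in KO, so both sums were higher in every KO library. KO 2 had the highest macrophage sum and KO 3 the highest fat cell sum. As a share of the fat cell sum the macrophage sum was 16.1%, 19.7% and 11.6% in WT and 16.9%, 28.3% and 10.9% in KO, which overlapped. Fabp4 was the most abundant gene of the fat cell sum, and WT 1 held very little Adipoq. Cd68 as a share of Adipoq was far more uneven, at 222%, 26.1% and 12.3% in WT and 18.3%, 43.7% and 16.6% in KO, also with overlap. Without WT 1 the macrophage median was 0.75 with 9 members higher, and without KO 2 it was 0.82 with 5, while the lipid-associated list kept a median between 0.88 and 1.31 with 8 to 11 members higher whichever library was left out. How far fat or blood cells in the samples bear on these differences was not tested.

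**Figure D3:**
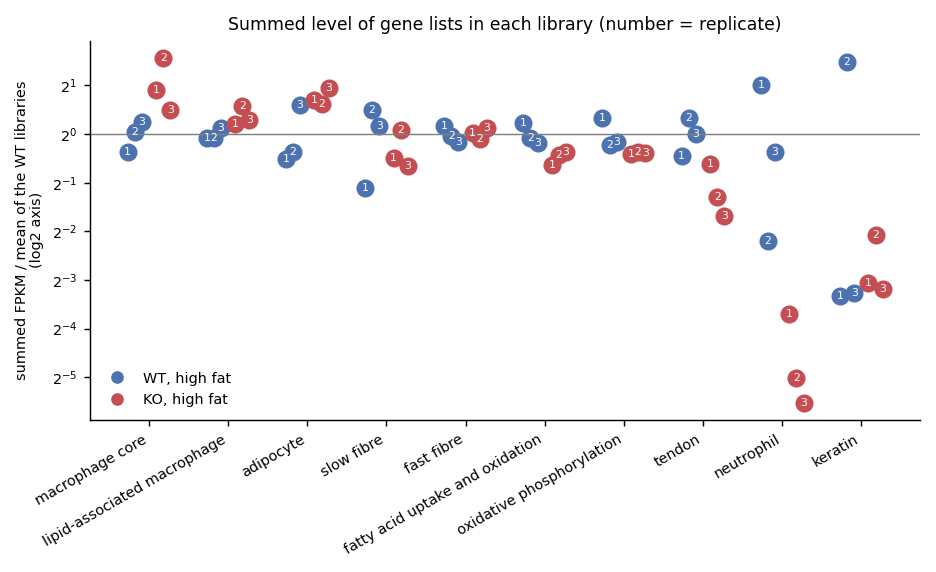
FPKM summed over each of 10 gene lists in each library on high fat diet, divided by the mean of the 3 WT libraries, on a log2 axis, with the replicate number in each point. Both macrophage sums and the fat cell sum are higher in every KO library, the fast fibre sum overlaps, the neutrophil and tendon sums are lower in every KO library, and the keratin sum is high in WT 2. The fat cell and tendon sums overlap once their most abundant genes, Fabp4 and Fmod, are left out.

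Genes of adult muscle fibres showed small differences. Of 16 fast fibre genes tested, the median log2 difference was 0.02, none was higher and 1 was lower at an unadjusted p under 0.05, and the summed level was 134377, 115707 and 106490 FPKM in WT and 120051, 110163 and 129321 FPKM in KO. The lower member was Myh1, the 2X myosin, at 1393, 752 and 828 FPKM in WT and 531, 569.9 and 397 FPKM in KO (log2 difference -0.95, SE 0.25, adjusted p = 0.105). Slow fibre genes depended on 1 library. Myh7, slow myosin, was at 3.20, 138 and 111 FPKM in WT and 77.7, 76.2 and 53.0 FPKM in KO, and Myl2, its regulatory light chain, at 41.8, 744 and 578 FPKM against 345, 529 and 295 FPKM. The 15 slow genes had a median log2 difference of 0.29 with all libraries and of -0.70 without WT 1. Mybpc1, slow myosin binding protein C, was not low in WT 1, at 870.3, 556 and 498 FPKM in WT and 279.8, 387 and 305 FPKM in KO (log2 difference -0.95, adjusted p = 0.0982).

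Embryonic and regenerating fibre genes had mostly positive differences, none past the adjusted threshold. Of 10 tested from 13, 7 were higher and none lower at an unadjusted p under 0.05 (9.79% of all genes were higher), with 1 tested only because of its KO level. Among the 7 was Ncam1 (log2 difference 0.80), which lies 952.4 kb from Cryab and was counted among its neighbours above. Myl4, the embryonic light chain, was at 8.44, 5.93 and 12.1 FPKM in WT and at 28.9, 73.1 and 30.3 FPKM in KO (log2 difference 2.11, SE 0.36, adjusted p = 0.0601). Embryonic myosin (Myh3) was at 0.577, 0.474 and 1.38 FPKM against 2.78, 5.57 and 2.19 FPKM (log2 difference 1.28, adjusted p = 0.196), and the differentiation factor myogenin (Myog) at 4.14, 7.63 and 8.97 FPKM against 15.5, 24.2 and 14.7 FPKM (log2 difference 1.29, adjusted p = 0.105). KO 2 was highest in all 3, and the groups did not overlap. Myod1, which acts earlier in the lineage, lay the other way without overlap, at 25.8, 28.0 and 25.8 FPKM in WT and 23.6, 21.0 and 18.1 FPKM in KO (log2 difference -0.34, adjusted p = 0.346). Without KO 2 the list median was 0.97 with 4 members higher.

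Genes of the neuromuscular junction, several of which are switched on along the fibre when nerve contact is lost, included the called gene Colq. Of 17 tested from 20, 7 were higher and none lower at an unadjusted p under 0.05 (9.79% of all genes were higher). In that direction 8 did not overlap (13% of all genes), and the median log2 difference was 0.54. Chrne, the adult ε subunit of the acetylcholine receptor, was at 14.1, 11.8 and 7.93 FPKM in WT and at 31.5, 25.5 and 18.4 FPKM in KO (log2 difference 1.09, SE 0.21, adjusted p = 0.0677). Its α subunit gene Chrna1 was at 6.54, 6.60 and 5.74 FPKM against 18.9, 13.2 and 9.40 FPKM (log2 difference 0.98, adjusted p = 0.113). KO 1 was the highest library and KO 3 the lowest KO library for Colq, Chrne and Chrna1, whereas KO 2 was highest for the embryonic genes.

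Stress genes of the sarcomere gave single large differences within lists that were otherwise level. Among 17 titin-linked stress genes the median log2 difference was 0.01, and 4 were higher at an unadjusted p under 0.05 (9.79% of all genes were higher). The count was 1 without WT 1 or without KO 2. Ankrd1, a stretch-responsive repressor held on titin, was at 7.13, 3.33 and 4.14 FPKM in WT and at 27.5, 91.3 and 22.7 FPKM in KO, 9.69 times the WT mean (log2 difference 2.81, SE 0.66, adjusted p = 0.0923). Xirp1, an actin-binding protein of damaged fibres, was at 22.9, 34.0 and 25.1 FPKM against 39.2, 46.1 and 52.2 FPKM (log2 difference 0.74, adjusted p = 0.227). Outside these lists, Rrad, a small GTPase that restrains calcium channels, was at 1.72, 4.47 and 5.62 FPKM in WT and at 23.4, 40.8 and 20.2 FPKM in KO, with the groups far apart (log2 difference 2.59, SE 0.42, adjusted p = 0.0533). Mybph, a myosin binding protein, was at 6.89, 39.9 and 93.2 FPKM in WT and at 169, 216 and 176 FPKM in KO (log2 difference 2.58, adjusted p = 0.105). At the Z-disc, where αB-crystallin binds, 4 of 20 genes were higher and 1 lower at an unadjusted p under 0.05 (9.79% and 6.45% of all genes). Without WT 1, KO 2 or KO 3, 2 were higher. Nestin (Nes), an intermediate filament of regenerating fibres and of the fibre at the synapse, was at 5.21, 6.29 and 5.77 FPKM in WT and 14.2, 13.3 and 7.50 FPKM in KO (log2 difference 0.87, adjusted p = 0.154). Desmin (Des) was at 2285, 2112 and 1854 FPKM in WT and 2351, 3062 and 2386 FPKM in KO, the lowest KO library lying just above the highest WT library (log2 difference 0.31, adjusted p = 0.416).

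The atrophy list was level. Of 14 genes, 1 was higher and 1 lower at an unadjusted p under 0.05, the lower being Klf15, a glucocorticoid-responsive factor, at 22.9, 18.7 and 17.8 FPKM in WT and 14.98, 14.2 and 15.5 FPKM in KO (log2 difference -0.39, adjusted p = 0.113). Sarcolipin (Sln), a peptide that uncouples the calcium pump of the sarcoplasmic reticulum, was at 7.91, 17.3 and 58.9 FPKM in WT and 83.4, 254 and 47.4 FPKM in KO, with overlap and wide spread in both groups (log2 difference 2.25, SE 0.78, adjusted p = 0.188). It was the only one of 18 genes of excitation and calcium release with an unadjusted p under 0.05.

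Genes for burning fatty acids were lower in KO on high fat. Of 32 tested, 22 were lower and 1 higher at an unadjusted p under 0.05 (6.45% of all genes were lower). In the lower direction 21 did not overlap (10.7% of all genes), and the median log2 difference was -0.44. None passed the adjusted threshold. Eci1, which isomerizes unsaturated fatty acids for mitochondrial oxidation, was at 226, 159 and 165 FPKM in WT and at 97.1, 108 and 125 FPKM in KO (log2 difference -0.72, SE 0.18, adjusted p = 0.0965). Fabp3, the fatty acid carrier of muscle cytoplasm, was at 1878, 1491 and 1281 FPKM against 731, 1076 and 965 FPKM (log2 difference -0.75, adjusted p = 0.299). The row shared by Chkb and Cpt1b, which holds the muscle carnitine palmitoyltransferase that lets fatty acids into mitochondria, was at 247, 194 and 181 FPKM against 142, 150.0 and 171 FPKM (log2 difference -0.41, adjusted p = 0.167). No KO library reached the lowest WT library for these 3 entries. The lipase Lpl, which frees fatty acids from blood lipoproteins, did not follow, being at 171, 198 and 229 FPKM in WT and 225, 241 and 271 FPKM in KO (log2 difference 0.31, adjusted p = 0.341). Plin5, chosen after its values were seen, coats the lipid droplets that touch muscle mitochondria and was at 26.7, 22.1 and 18.6 FPKM against 8.99, 10.7 and 14.2 FPKM (log2 difference -0.94, adjusted p = 0.113).

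The summed level of the 32 genes was 7288, 5837 and 5420 FPKM in WT and 4004, 4558 and 4765 FPKM in KO. As a share of the fast fibre sum it was 5.42%, 5.04% and 5.09% in WT and 3.34%, 4.14% and 3.68% in KO, so the separation of the groups was also present relative to fibre RNA. Without WT 1 the median was -0.31 with 15 members lower, and without KO 1 it was -0.41 with 15. On chow the list lay on the other side of 0, with a median log2 difference of 0.16. There 10 members were higher and none lower at an unadjusted p under 0.05 (6.73% and 9.93% of all genes on chow). The summed level on chow was 3539, 3485 and 2981 FPKM in WT and 3550, 3545 and 4986 FPKM in KO. The effect of genotype differed between diets at an unadjusted interaction p under 0.05 in 21 of the 32, against 6.25% of all genes, and no single gene did so after adjustment (lowest adjusted p over all genes 0.408). Slc27a1, a fatty acid transporter of the fibre surface, was one of them, at 62.3, 53.5 and 50.4 FPKM in WT and 35.3, 37.0 and 45.3 FPKM in KO on high fat, but at 25.9, 30.8 and 24.4 FPKM in WT and 57.0, 40.8 and 75.9 FPKM in KO on chow (interaction adjusted p = 0.408 in limma).

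Amino acid breakdown and the respiratory chain were lower by smaller amounts. All 20 genes of branched-chain amino acid catabolism had negative differences, 11 with an unadjusted p under 0.05 (6.45% of all genes were lower) and 14 without overlap (10.7%), with a median log2 difference of -0.27. None passed the adjusted threshold, here or among the respiratory genes. Pcca, a subunit of propionyl-CoA carboxylase at the end of that route, was at 32.6, 27.4 and 27.1 FPKM in WT and at 19.2, 20.4 and 21.2 FPKM in KO (log2 difference -0.49, SE 0.09, adjusted p = 0.0626), and Bcat2, the transaminase that opens it, at 45.6, 43.3 and 40.2 FPKM against 37.1, 33.8 and 33.4 FPKM (log2 difference -0.30, adjusted p = 0.113). Of 89 oxidative phosphorylation genes, 86 had negative differences and 71 did not overlap in that direction (10.7% of all genes), 46 had an unadjusted p under 0.05 (6.45%), and the median log2 difference was -0.36. Sdhd, a membrane anchor of complex II, was at 488, 325 and 333 FPKM in WT and at 225, 244 and 261 FPKM in KO (log2 difference -0.63, adjusted p = 0.0929), but it lies 147.5 kb from Cryab and was counted among its neighbours above. Atp5e, a subunit of ATP synthase, was at 1903, 1386 and 1409.8 FPKM against 1211, 1215 and 1223 FPKM (log2 difference -0.35, adjusted p = 0.299). WT 1 was the highest library for all 4 of these genes.

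The respiratory result rested heavily on WT 1. Summed over the list, the level was 74231 FPKM in WT 1 against 50915 and 52884 FPKM in WT 2 and 3, and 44448, 46109 and 45145 FPKM in KO. Without WT 1 the median log2 difference was -0.18 and 6 members were lower at an unadjusted p under 0.05, against 69 without WT 2, 25 without KO 2 or KO 3, and 12 without KO 1. After quantile normalization the median was -0.20 with 43 lower. For the branched-chain list 6 were lower without WT 1, with a median of -0.18, and 6 without KO 2, with a median of -0.21. Genes of insulin signalling and glucose uptake were level, with none higher and 2 of 21 lower at an unadjusted p under 0.05. Tbc1d1, a Rab GTPase-activating protein that holds glucose transporters inside the cell, was at 28.9, 25.3 and 17.8 FPKM in WT and 15.7, 9.37 and 7.60 FPKM in KO (log2 difference -1.10, SE 0.24, adjusted p = 0.0826). The insulin receptor (Insr) was at 9.03, 9.41 and 8.22 FPKM against 8.47, 7.04 and 8.27 FPKM, with overlap.

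**Figure D4:**
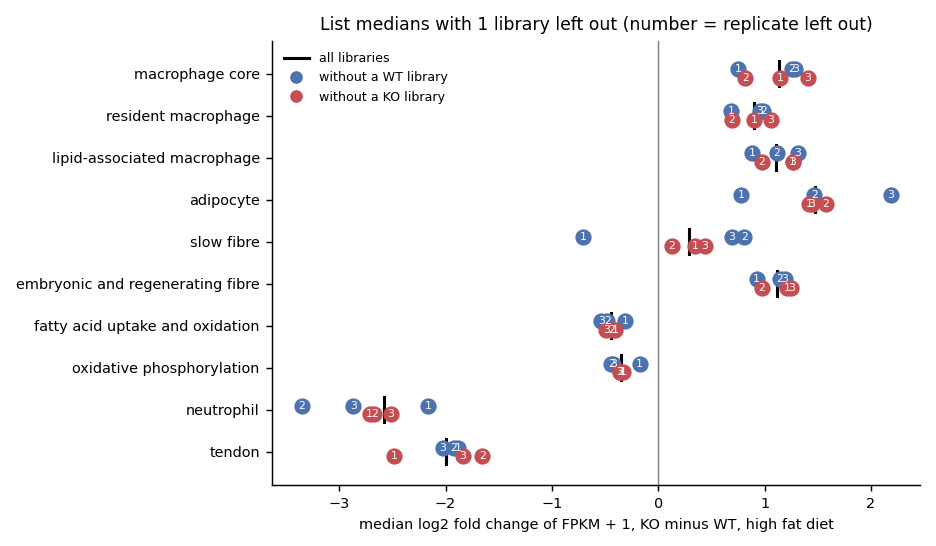
Median log2 difference (KO minus WT, FPKM + 1) of 10 gene lists on high fat diet with all 6 libraries (bar) and with 1 WT (blue) or 1 KO (red) library left out, the number giving the replicate. The slow fibre median changes side without WT 1, the fat cell median spans 0.78 to 2.19, and the other 8 medians keep their side of 0.

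Differences were ranked among genes with a mean of 1 FPKM or more in the higher group, an unadjusted p under 0.05 and no overlap. After the deleted genes, the lowest log2 differences among these belonged to markers of cells other than muscle. Acta1, listed at 0 in KO 2, had a log2 difference of -4.92, but its groups overlapped. Neutrophil granule genes were lower in KO, with 10 of 11 tested lower at an unadjusted p under 0.05 (6.45% of all genes), although 4 of the 11 were tested only because of their WT level. The count was 7 of 9 without WT 1 or without WT 3. Without WT 2 it was 11 of 11, of which 7 passed the adjusted threshold. S100a9, a calcium-binding protein abundant in neutrophils, was at 378, 39.9 and 148 FPKM in WT and at 14.8, 2.07 and 2.19 FPKM in KO (log2 difference -4.62, SE 0.95, adjusted p = 0.0688), and its partner S100a8 at 522, 59.0 and 197 FPKM against 18.9, 10.2 and 7.05 FPKM (log2 difference -3.92, adjusted p = 0.0929). Ngp and Camp, granule proteins made by neutrophil precursors, were at 106, 10.2 and 38.2 FPKM and at 94.6, 9.08 and 34.9 FPKM in WT, and at no more than 2.90 FPKM in any KO library (adjusted p = 0.0677 for each). Myeloperoxidase (Mpo), made early in the marrow, was at 4.59, 0.505 and 3.45 FPKM in WT and at or below 0.0920 FPKM in KO. WT 1 was highest and WT 2 lowest of the WT libraries throughout. The α-globin row (Hba-a1 and Hba-a2) followed the same order in WT, at 2363, 1075 and 1731 FPKM against 1177, 529.6 and 681 FPKM in KO, with overlap (adjusted p = 0.144). On chow the median over these genes was 0.70, a contrast between diets that is partly set by the 4 genes tested through their high fat level. The amount of blood or marrow in each sample was not measured, and its part in these values was not tested.

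Tendon and matrix genes split. Of 9 tendon genes tested, 7 were lower and 1 higher at an unadjusted p under 0.05 (6.45% and 9.79% of all genes). Tenomodulin (Tnmd) was at 20.1, 23.5 and 23.3 FPKM in WT and at 10.5, 5.36 and 5.02 FPKM in KO (log2 difference -1.61, adjusted p = 0.125), the collagen-binding fibromodulin (Fmod) at 124, 247 and 162 FPKM against 90.3, 11.8 and 23.8 FPKM (log2 difference -2.48, adjusted p = 0.179), and Chad, a cartilage matrix protein, at 18.4, 37.4 and 32.1 FPKM against 11.4, 0.446 and 3.31 FPKM (log2 difference -2.77, adjusted p = 0.113). KO 1 was the highest KO library in each. On chow these 3 genes were lower in WT than in WT on high fat, with Tnmd at 0.888, 5.53 and 5.56 FPKM, and their groups overlapped. The higher member was Cilp, a matrix protein of cartilage intermediate layers that fibroblasts also make, at 6.46, 12.2 and 19.6 FPKM in WT and 60.3, 78.1 and 46.2 FPKM in KO (log2 difference 2.27, SE 0.39, adjusted p = 0.0601). Fibroblast genes lay with Cilp, 11 of 28 being higher and 2 lower at an unadjusted p under 0.05 (9.79% and 6.45% of all genes). The counts were 6 and 3 without WT 1, 7 and 2 without KO 2, and 17 and 1 without WT 3. The collagen cross-linking enzyme Loxl1 was at 4.97, 8.48 and 10.2 FPKM in WT and 15.5, 21.8 and 13.4 FPKM in KO (log2 difference 1.03, adjusted p = 0.0688). Of 27 collagen genes tested, 13 were higher and 4 lower at that level (9.79% and 6.45% of all genes). Of the 27, 3 were tested only because of the group in which they were higher. Col8a2 was one of the lower ones, at 1.01, 2.01 and 2.17 FPKM in WT and 0.679, 0.248 and 0.225 FPKM in KO (log2 difference -0.97, adjusted p = 0.0688). Without WT 1 the collagen counts were 9 higher and 3 lower.

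The 2 diets were compared with each other on the same genes, as each contrast used its own libraries. On chow 7 genes passed, of which 5 (Cryab, Hspb2, 2310030G06Rik, 2310014F07Rik and Serpina3h) were also called on high fat with the same sign. No gene passed for a difference of the genotype effect between diets, although 746 did so at an unadjusted p under 0.05. Among the 9 genes that rose on high fat, the log2 difference on chow was 3.11 for Serpina3h, 1.36 for Il20rb and 0.84 for Colq, with groups that did not overlap on either diet. It was 0.12 for Crlf2 and 0.00 for Dpep2, whose groups overlapped on chow, although Dpep2 was tested only because of its level in KO on high fat (interaction adjusted p = 0.593 and 0.425 in limma). For single genes of the fibre, the log2 difference on chow was 3.36 for Ankrd1, 1.92 for Rrad, 1.55 for Myl4 and 0.06 for Mybph, none past the adjusted threshold. The titin-linked stress list that holds Ankrd1 had a median of -0.19 on chow. The lipid-associated list had a median of 1.10 on high fat and 0.17 on chow, with an unadjusted interaction p under 0.05 in 5 of 15 genes, the general list 1.13 and 0.67 with 1 of 16, and the resident list 0.90 and 0.52 with none of 16, against 6.25% of all genes. The lists were not tested against each other, and 2 of the 15 were tested only because of their level in KO on high fat. Trem2 was at 1.85, 3.05 and 1.08 FPKM in WT and 2.06, 2.01 and 2.17 FPKM in KO on chow (interaction adjusted p = 0.593 in limma). The fat cell list had similar medians on both diets, 1.48 and 1.26, with no interaction at that level in 23 genes.

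**Figure D5:**
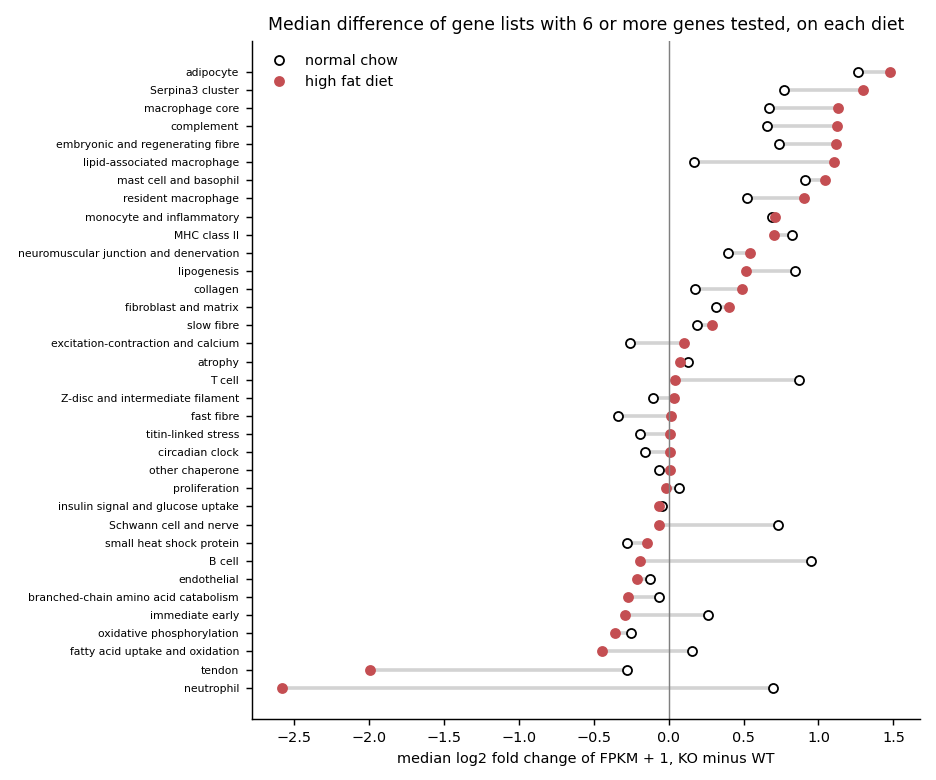
Median log2 difference (KO minus WT, FPKM + 1) of each gene list with 6 or more tested genes, on normal chow (open) and on high fat diet (filled), ordered by the high fat value. Fat cell and general macrophage lists are positive on both diets, the lipid-associated macrophage list moves from 0.17 to 1.10, and the fatty acid oxidation and neutrophil lists lie on opposite sides of 0 on the 2 diets.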

How the data were processed

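RNA from proximal hind limb muscle of 12 male FVB mice (3 per group, WT and KO on normal chow or high fat diet) was made into libraries with the TruSeq kit, which does not mark strand, and read in paired ends by the authors. TopHat2 2.0.8b, Cuffdiff 2.1.1 and build mm10 are named in the submitters' processing notes, and the annotation is not given in the sources used here. The deposited values were FPKM, 1 per symbol and library, with no pooling of replicates. The unit was read from the values. Depth in reads is unknown, and from the steps between low values the 6 high fat libraries lay within 0.986 to 1.17 times the depth of WT 1. FPKM is a share of each library, so abundant muscle genes weigh on all others.

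Each file held 23179 rows and 22923 symbols, and of rows repeating a symbol (158 symbols) that of greatest mean was used. Genes with at least 1 FPKM in 3 of 12 libraries were fitted on log2(FPKM + 1), which understates differences of low genes, in limma 3.58.1 (R 4.3.3) with 4 group means, all 12 libraries, 8 residual degrees of freedom and a trend. Two-sided p-values were adjusted by the method of Benjamini and Hochberg over all 11945 genes (threshold 0.05). They measure the spread between libraries, each labelled as a separate sample.

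Genes named were Cryab and Hspb2, every gene past the threshold, the 10 largest differences in each direction (mean of 1 FPKM or more in the higher group, unadjusted p under 0.05, no overlap), and up to 8 members of each of 39 lists: those past the threshold, the first listed, and that with the lowest p. 1 called gene is not reported here. Members and lists were chosen with earlier results of these data known, and lists were not tested. Positions came from GENCODE M21 on GRCm38 (mm10), in which 22372 symbols were found. Promoter windows of 300 bases came from RefSeq (GRCm38.p6, 32851 windows, 27025 symbols), with 10 patterns counted on both strands: GAGGAA with its longer form GAGGAAGT, the heat shock element as GAANNTTC or in both longer forms, both nuclear receptor direct repeats, the E-box CANNTG with its form CAGCTG, and the TATA box TATAAA. No window was listed for Cryab, Hspb2 or Emr1. Summaries used Python 3.11.15, NumPy 2.4.6, SciPy 1.17.1 and pandas 2.3.3. The fit was tested on simulated data. Alternatives were another pseudocount, other filters, 2 other scalings, robust moderation, the replicate block, the high fat groups alone, summed repeats of a symbol and leaving out each high fat library.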

Additional observations from a re-analysis of the deposited data

Results flagged for a closer look

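The mean summed level of the genes for fatty acid uptake and oxidation had opposite directions on the 2 diets. The mean of their summed FPKM in KO was 0.719 times the WT mean on high fat, with every KO library below every WT library, and 1.21 times the WT mean on chow. On chow the sum was 3539, 3485 and 2981 FPKM in WT and 3550, 3545 and 4986 FPKM in KO. KO 3 on chow, the highest of these, had 96.4% of its FPKM total in 10 genes, and whether this bears on its sum was not tested. The difference between the diets in this sum was not tested. For Slc27a1, the fatty acid transporter in that list, all libraries moved in opposite directions on the 2 diets, with a log2 difference of -0.49 on high fat and 1.03 on chow. The difference between them was -1.52 (interaction adjusted p = 0.408 in limma). On chow, 3 libraries held T cell markers, and their part in these values was not tested.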

How the results depend on the processing

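The 13 genes called on high fat became 24 with no filter on low values, 0 when at least 1 FPKM was required in every library (a filter that removes genes listed at or near 0 in 1 group, with 1660 genes still at an unadjusted p under 0.05), 26 after quantile normalization, 8 with the high fat groups alone, and 4 to 82 with 1 library left out, the highest being without WT 3. The count was 10 to 16 under the other 4 settings. On chow the 7 calls became 0 under the strictest filter and 4 with the replicate block, and the interaction gave 1 call in place of 0 with no filter. Deviations of same-numbered WT and KO libraries correlated at -0.07, 0.02 and 0.01, and those of differently numbered ones at -0.22 to 0.17. So few libraries cannot exclude a pairing by number. A fit with the replicate number as a block gave 5 calls on high fat (Cryab, Hspb2, both neighbours and Serpina3h). Of 91 named genes, 3 changed direction under some setting, none of them called. With 1 library left out, the log2 difference of Myh7 ran from -0.86 (without WT 1) to 1.67, that of Myl2 from -0.79 (without WT 1) to 1.27, and that of Spp1 from -0.96 to 0.053 (without WT 3). The median of the slow fibre list was -0.70 without WT 1 and 0.29 with it. The cause was not tested in any of these. Depth in reads was unknown, which leaves the precision of genes near 0 FPKM unknown.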

Other observations

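Mast cell genes were higher in KO in part. Of 6 tested from a list of 11, 4 were higher and none lower at an unadjusted p under 0.05 (9.79% of all genes were higher), with a median log2 difference of 1.05. The count was 2 without WT 1, without KO 1 or without KO 2, and the median without WT 1 was 0.65. Cma1, mast cell chymase, was at 1.14, 4.96 and 2.70 FPKM in WT and at 7.91, 12.1 and 5.57 FPKM in KO, without overlap (log2 difference 1.34, SE 0.36, adjusted p = 0.112 in limma). Cpa3, a carboxypeptidase of mast cell granules, was at 1.16, 4.38 and 3.65 FPKM against 7.87, 10.5 and 5.04 FPKM (log2 difference 1.17, adjusted p = 0.149). Both were also higher in KO on chow, with log2 differences of 0.83 and 1.03, and WT 1 was the lowest library for each.

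Of 14 endothelial genes, 12 had negative differences, none was higher and 4 were lower at an unadjusted p under 0.05 (6.45% of all genes were lower), with a median of -0.21. The count of lower genes was 1 without KO 2, 2 without WT 1, WT 3 or KO 1, 7 without WT 2 and 9 without KO 3, and the summed FPKM overlapped between the groups.

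Lymphocyte genes were scarce in all 6 libraries. The FPKM summed over 17 T cell genes was 2.85, 3.59 and 4.42 in WT and 4.47, 6.79 and 5.61 in KO, without overlap, but the groups overlapped once Cd28, the most abundant of them, was left out. Summed over 14 B cell genes it was 11.1, 5.60 and 9.42 in WT and 6.06, 5.04 and 6.27 in KO, with overlap. With the high fat libraries alone, 1 gene of each list reached the filter, and the median log2 differences of the lists depended on the pseudocount, at 0.04 with 1 FPKM and 0.21 with 0.1 FPKM for T cells and at -0.19 and -0.94 for B cells.

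The median log2 difference was 0.01 for 17 circadian clock genes, -0.07 for 10 genes of Schwann cells and nerve and -0.02 for 8 genes of cell division, with none of the last 2 lists at an unadjusted p under 0.05.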
